A study of Homo sapiens with 6 samples.

Results

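The collagen gene family was examined as the 33 genes whose symbol has the form COL, number, A, number and that reached an expected count of at least 20 in any of 6 RNA-seq libraries, out of 39282 genes in the files. The symbol pattern matched 44 genes, and 11 of them stayed under the minimum in every library. By class, 9 of 11 matched fibrillar genes, 5 of 6 basement membrane genes, 7 of 10 FACIT genes (fibril-associated collagens with interrupted triple helices) and 12 of 17 other collagen genes were members. Just inside the minimum were COL8A2 with a highest count of 24, COL24A1 with 38, COL4A4 with 45 and COL16A1 with 46. Just outside were COL6A5 with 18, COL28A1 with 12, and COL3A1 and COL22A1 with 10 each. All 33 members passed the filter on low counts that kept 16855 genes for testing.

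The libraries came from 2 human tumour lines, PA-1, labelled an ovarian teratocarcinoma, and TOV21G, labelled a clear cell carcinoma of the ovary. Each line gave 1 library with sh-MEX3A#1 (hairpin 1) and 1 with sh-MEX3A#2 (hairpin 2), both lentiviral short hairpin RNAs against the RNA-binding protein MEX3A, and 1 library with the scramble hairpin sh-Ctrl (control). All cultures, controls included, carried a lentiviral hairpin, and the design text calls each depleted culture a clone. The lines were grown in different media, so line and medium cannot be told apart, and a change in the share of a cell type and a change in RNA per cell cannot be told apart in bulk RNA.

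Collagens are triple helices of 3 chains, each chain the product of its own gene. Fibrillar collagens are secreted as procollagens, trimmed and cross-linked into the fibrils of connective tissue, while type IV collagen forms the sheet-like network of basement membranes on which epithelia, the ovarian surface included, rest. FACIT collagens sit on fibril surfaces, and the remaining types include those that form filaments, anchoring fibrils and networks or span the cell membrane. Prolyl and lysyl hydroxylases modify the chains in the endoplasmic reticulum, large COPII vesicles carry the trimers out, and lysyl oxidases cross-link them outside the cell.

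The promoters of 25 of the 33 members were in the RefSeq table (GRCh38.p14). COL1A1, COL1A2, COL2A1, COL5A2, COL6A1, COL8A1, COL9A3 and COL14A1 were not in it. The interval between the starts of COL4A1 and COL4A2 (chr13:110307158-110307283, plus strand, reading towards COL4A2) is shown because these partner chains of type IV collagen share it and are among the leading members in both lines. The 250 bases before the start of COL4A5 (chrX:108439588-108439837, plus strand) are shown for the next most abundant basement membrane chain. Those of COL12A1 (chr6:75206054-75206303, minus strand), COL7A1 (chr3:48595330-48595579, minus strand) and COL17A1 (chr10:104085881-104086130, minus strand) are shown as the members in the table that were at least 2-fold higher with both hairpins in PA-1. Each is written 5′ to 3′ towards the gene named (COL4A2 for the shared interval), and capitals mark the motif matches.
COL4A1-COL4A2 interval: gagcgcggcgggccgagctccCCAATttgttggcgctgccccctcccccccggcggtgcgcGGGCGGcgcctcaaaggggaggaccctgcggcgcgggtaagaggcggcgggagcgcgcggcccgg
COL4A5: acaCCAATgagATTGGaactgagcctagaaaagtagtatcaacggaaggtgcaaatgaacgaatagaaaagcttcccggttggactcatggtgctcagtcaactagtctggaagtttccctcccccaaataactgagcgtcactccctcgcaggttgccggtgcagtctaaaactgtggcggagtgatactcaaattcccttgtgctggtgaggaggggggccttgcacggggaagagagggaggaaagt
COL12A1: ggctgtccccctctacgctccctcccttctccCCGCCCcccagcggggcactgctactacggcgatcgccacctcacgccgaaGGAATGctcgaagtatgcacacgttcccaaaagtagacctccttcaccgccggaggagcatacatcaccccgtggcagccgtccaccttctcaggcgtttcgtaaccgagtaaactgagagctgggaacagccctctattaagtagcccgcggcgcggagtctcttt
COL7A1: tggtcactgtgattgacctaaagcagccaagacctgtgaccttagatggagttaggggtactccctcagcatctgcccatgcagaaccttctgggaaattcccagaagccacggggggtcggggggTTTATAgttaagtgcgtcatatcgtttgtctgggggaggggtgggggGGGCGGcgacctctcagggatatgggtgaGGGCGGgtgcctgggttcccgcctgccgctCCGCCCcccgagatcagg
COL17A1: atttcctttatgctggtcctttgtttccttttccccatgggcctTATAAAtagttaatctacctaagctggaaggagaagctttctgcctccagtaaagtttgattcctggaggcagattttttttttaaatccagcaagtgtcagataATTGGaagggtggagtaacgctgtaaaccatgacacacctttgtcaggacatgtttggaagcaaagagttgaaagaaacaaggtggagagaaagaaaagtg

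The motifs searched on both strands were the CCAAT box (CCAAT), the GC box (GGGCGG), the TATA box (TATAAA), an AP-1 site (TGANTCA) and a TEAD site (GGAATG), and no 2 matches overlapped in the sequences shown. In the 126 bases shared by COL4A1 and COL4A2, which are 80.2% G and C, there was 1 CCAAT box and 1 GC box and no TATA box. COL7A1 held 3 GC boxes and 1 TATA box on the opposite strand, COL17A1 a TATA box and a CCAAT box, COL12A1 a TEAD match and a GC box, and COL4A5 a pair of facing CCAAT boxes. Over 37 promoter windows of member genes, a GC box was present in 51.4%, against 42.6% of all 35116 windows of that length. A CCAAT box was present in 27.0% against 32%, a TATA box in 18.9% against 10.7%, a TEAD match in 8.11% against 11.9%, and an AP-1 match in 2.70% against 6.57%. These matches describe letters in these windows only.

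The libraries held 14654628 to 19495162 expected counts. MEX3A was at 41.2 and 54.9 CPM (counts scaled to the TMM-adjusted library total) with hairpins 1 and 2 in PA-1, against 137 CPM in the control, and at 40.1 and 33.1 CPM with the hairpins in TOV21G, against 78.3 CPM in the control. The hairpin libraries of TOV21G varied more than those of PA-1, with biological coefficients of variation of 0.387 and 0.164 when each line was fitted alone. MALAT1, a nuclear RNA, lay at 9429 and 18455 CPM with hairpins 1 and 2 in TOV21G, and at 4315 CPM in the control, and in PA-1 at 1303 and 1113 CPM with the hairpins and 910 CPM in the control. NEAT1, another nuclear RNA, was at 1133 and 1068 CPM with the hairpins in TOV21G, against 361 CPM, and at 270 and 273 CPM in PA-1, against 119 CPM. The part of these differences in the collagen results was not tested. The 8 pluripotency markers summed to 3516 to 4170 CPM in PA-1 and 31.1 to 84.9 CPM in TOV21G, where NANOG, LIN28B, DPPA4 and L1TD1 were at 0. LIN28A made up most of the TOV21G sum, with 42.1 and 78.3 CPM with hairpins 1 and 2 and 22.3 CPM in the control. With both hairpins in PA-1, 3 of these 8 markers were higher and 3 lower (33.8% and 34.0% of genes). POU5F1 was the marker of this list at least 2-fold higher there (3.36% of genes), with 1044 and 1258 CPM, against 468 CPM. The lower ones were SOX2, at 311 and 304 CPM, against 394 CPM, LIN28A, at 1699 and 2015 CPM, against 2800 CPM, and LIN28B. The labels give the tissue as ovarian surface epithelium, whose 10 markers summed to 279 to 419 CPM in PA-1 and 163 to 284 CPM in TOV21G. KRT8 and KRT18 were present in all libraries, at 60.0 to 216 CPM and 81.3 to 183 CPM. MSLN reached 52.5 CPM in TOV21G and 0.559 CPM in PA-1, WT1 reached 13.6 CPM in PA-1 and 2.14 CPM in TOV21G, UPK3B was at 3 counts or fewer in all libraries and KRT7 at 0 in PA-1.

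Of the 8 clear cell carcinoma markers, 2 were at least 2-fold higher with both hairpins in PA-1 (3.36% of genes) and 2 in TOV21G (4.26%). Another 2 were at least 2-fold lower in TOV21G (3.36% of genes). TFPI2 was at 20.2 and 55.3 CPM in the PA-1 hairpin libraries, against 3.34 CPM, and at 519 and 443 CPM in the TOV21G ones, against 41.2 CPM. SPP1 was at 894 and 852 CPM in the PA-1 hairpin libraries, against 166 CPM. ANXA4 was at 197 and 199 CPM in the TOV21G hairpin libraries, against 650 CPM, and GPX3 at 31.3 and 19.3 CPM, against 115 CPM. Of 12 fibroblast markers other than collagens, FAP, TWIST2 and DPT were at 3 counts or fewer in all libraries. The list summed to 208 and 388 CPM with the hairpins in PA-1, against 173 CPM in the control, and to 383 and 177 CPM with the hairpins in TOV21G, against 185 CPM. Of its 8 genes tested, 5 were higher and 2 lower with both hairpins in PA-1 (33.8% and 34.0% of all genes). In TOV21G 3 were higher and 2 lower (31.3% and 31.9%). ACTA2 was higher in every hairpin library, at 34.1 and 45.9 CPM in PA-1, against 11.5 CPM. In TOV21G it was at 143 and 78.4 CPM, against 37.6 CPM (mean of both lines, DESeq2 adjusted p = 0.00135, while no gene passed edgeR). PDGFRB was lower with both hairpins in PA-1, at 6.67 and 8.39 CPM, against 14.5 CPM. So was THY1 in TOV21G, at 0.330 and 0.134 CPM, against 0.974 CPM. The 5 endothelial markers summed to 152 and 267 CPM with the hairpins in PA-1, against 166 CPM in the control, and to at most 2.55 CPM in TOV21G. Of 6 blood cell markers, 5 were at 3 counts or fewer in all libraries. The part of these cell type markers in the collagen results was not tested.

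Members were ranked by level per transcript length (TPM), as the mean over the 3 libraries of a line, hairpins and control alike. The leading 3 members were the same in both lines. COL18A1, whose C-terminal fragment is endostatin, was the first of the family in PA-1 with 206 and 213 TPM with hairpins 1 and 2, against 159 TPM in the control, and the second in TOV21G with 262 and 395 TPM, against 302 TPM. The first in TOV21G was COL4A1, a chain of the type IV collagen found in nearly all basement membranes, with 303 and 552 TPM with the hairpins, against 150 TPM in the control. In PA-1 it had 200 and 209 TPM, against 156 TPM. Its partner COL4A2 came next after these in both lines. In the TOV21G control COL18A1 came first, and with hairpin 2 COL4A2, at 435 TPM, was above COL18A1. The other genes among the leading 5 differed between the lines. They were the fibrillar COL5A2, and COL26A1, in PA-1, and COL1A2 and COL4A5 in TOV21G. COL5A2 was among the leading 5 of PA-1 through its hairpin libraries, with 115 and 171 TPM, and not in the control, where it had 24.3 TPM and COL2A1 had 52.6 TPM. COL1A2, the second chain of type I collagen, had 168 and 128 TPM with the hairpins in TOV21G, against 73.1 TPM in the control, and at most 1.77 TPM in PA-1.

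**Figure D1:**
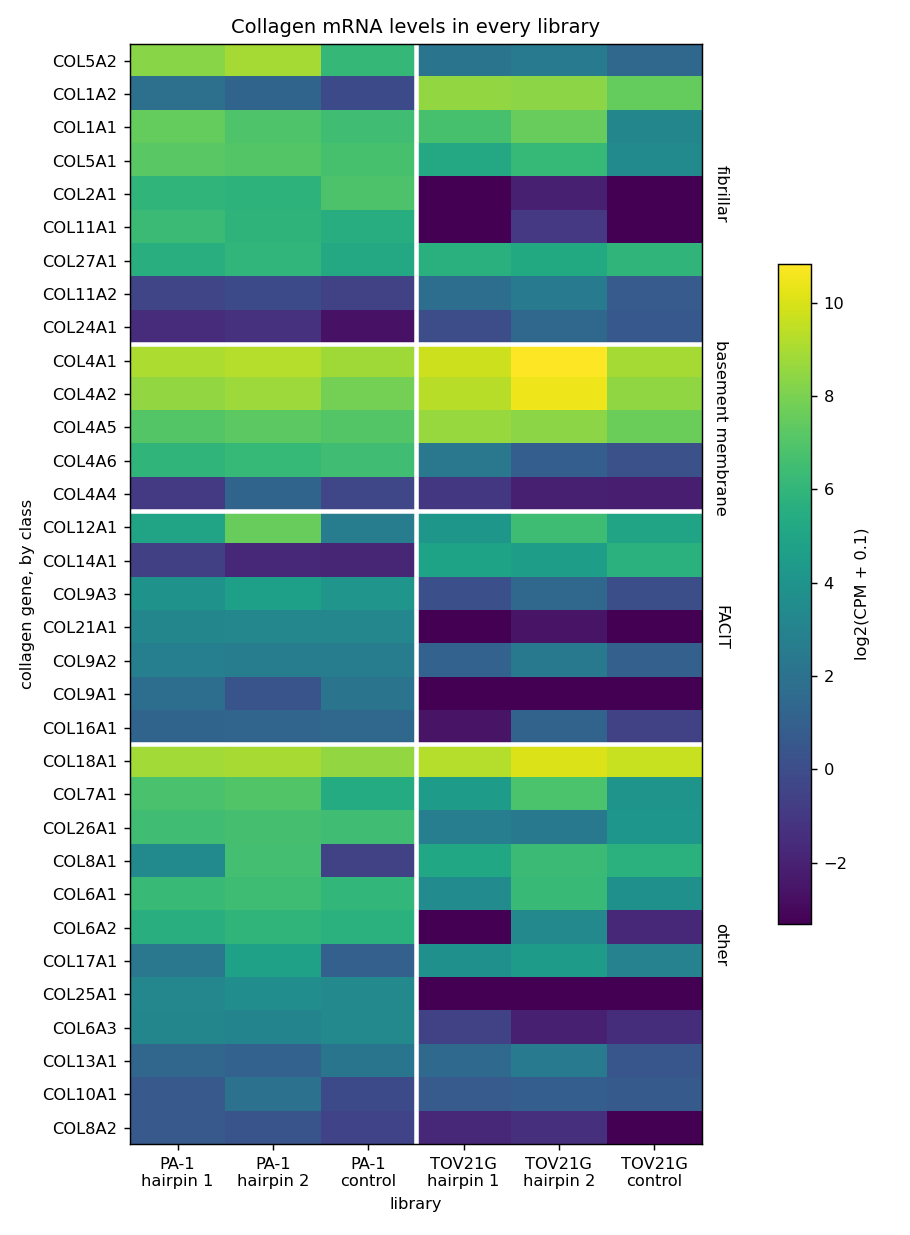
Level of each of the 33 collagen genes (rows, by class) in the 6 libraries (columns, hairpins left of the control within each line), as log2 of CPM plus 0.1. COL18A1, COL4A1 and COL4A2 were high in all libraries, while COL2A1, COL11A1, COL21A1, COL25A1 and COL9A1 were measured in PA-1 and at or near 0 in TOV21G.

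The summed level of the family was higher with each hairpin than with the control in both lines. The 33 members summed to 1163 and 1311 TPM with hairpins 1 and 2 in PA-1, against 848 TPM in the control, and to 1230 and 1853 TPM in TOV21G, against 794 TPM. Their share of all expected counts was 0.297% and 0.348% with the hairpins in PA-1, against 0.208% in the control (95% Wilson interval 0.206% to 0.211%), and 0.337% and 0.532% in TOV21G, against 0.228% (0.226% to 0.230%). Fibrillar collagens summed to 306 and 321 TPM with the hairpins in PA-1, against 166 TPM in the control, and to 238 and 225 TPM in TOV21G, against 98.7 TPM. These sums were 1.84-fold and 1.93-fold the control in PA-1, and 2.41-fold and 2.28-fold the control in TOV21G. Without the highest member of each library they were 1.68-fold and 1.32-fold in PA-1, and 2.75-fold and 3.78-fold in TOV21G. That member was COL1A2 in TOV21G, but COL5A2 with the hairpins and COL2A1 in the control of PA-1. The PA-1 folds therefore do not compare the same genes. COL5A2 alone had 115 and 171 TPM with the hairpins in PA-1, against 24.3 TPM in the control. Without COL5A2 the hairpin sums there were 191 and 151 TPM. Basement membrane collagens summed to 411 and 439 TPM with the hairpins in PA-1, against 320 TPM in the control, and to 675 and 1091 TPM in TOV21G, against 326 TPM. Without COL4A1 the TOV21G sums were still 2.12-fold and 3.07-fold the control. FACIT collagens summed to 37.4 and 73.7 TPM with the hairpins in PA-1, against 32 TPM in the control. This is 1.17-fold and 2.30-fold by TPM but 1.57-fold and 5.09-fold by share of counts. COL12A1 alone had 6.19 and 36.5 TPM with the hairpins in PA-1, against 1.23 TPM in the control. Without COL12A1 the hairpin 2 sum there was 37.2 TPM. In TOV21G the FACIT collagens lay at 14.3 and 28.0 TPM on either side of the control at 20.6 TPM. The other collagens had 408 and 478 TPM with the hairpins in PA-1, against 330 TPM in the control. They again lay on either side of the control in TOV21G, with 302 and 509 TPM against 349 TPM. COL18A1 made up 86.6% and 77.6% of the TOV21G sums with the hairpins, and 86.7% in the control. There was 1 control library per line, so the sums of the family and its classes have no test, and the intervals cover counting error only.

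**Figure D2:**
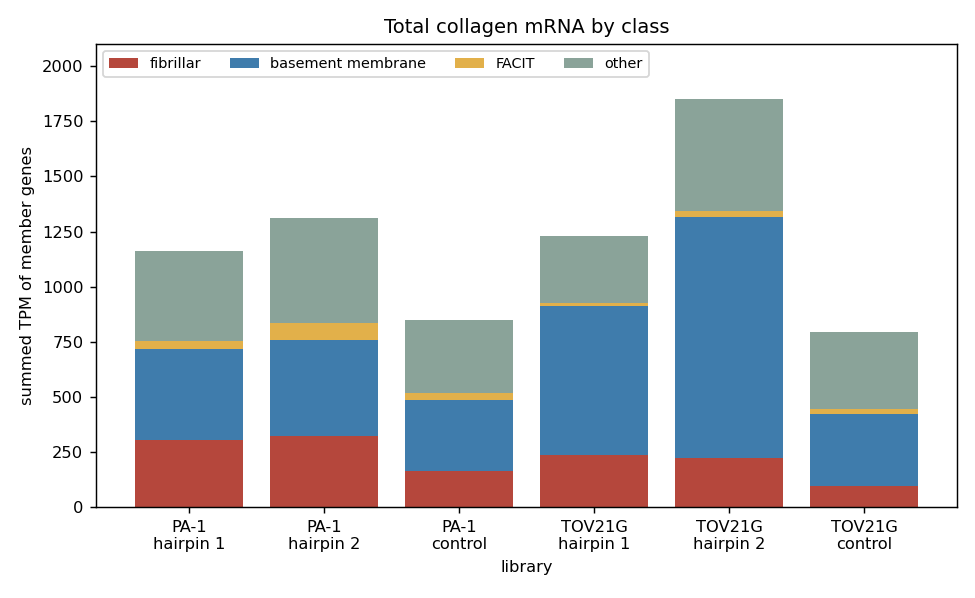
Summed TPM of the member genes in each library (bars), stacked by collagen class, with the hairpins left of the control in each line. The total was 1163 and 1311 TPM with the hairpins against 848 TPM in the PA-1 control. In TOV21G it was 1230 and 1853 TPM against 794 TPM, and most of the excess was in the basement membrane class, whose members are type IV chains.

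The series compared each hairpin with the control of its line, and both differences of a line share that 1 control library. In PA-1, 6 of 33 collagen genes (18.2%) were at least 2-fold higher with both hairpins, against 3.36% of the 16855 genes tested, and 0 were at least 2-fold lower, against 0.682%. In TOV21G, 5 (15.2%) were at least 2-fold higher with both hairpins, against 4.26% of genes, and 1 was at least 2-fold lower, against 3.36%. The TOV21G count of 5 became 2 at a prior count of 5, and 2 among members with at least 100 counts. The shares of all genes at those settings are not given, so 4.26% is no background for these smaller counts. Higher by any amount with both hairpins were 20 members in PA-1 (33.8% of genes) and 17 in TOV21G (31.3% of genes), and lower were 6 (34.0% of genes) and 3 (31.9% of genes). Higher with both hairpins in TOV21G and lower with both in PA-1 were 2 members (6.06%, against 7.39% of genes), and the reverse held for 2 (6.06%, against 7.29% of genes). The median difference of the members in log2 CPM was 0.28 and 0.43 with hairpins 1 and 2 in PA-1, and 0.08 and 1.1 in TOV21G, beside medians of 0.00 over all genes tested.

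No collagen gene passed edgeR's quasi-likelihood test (adjusted p, threshold 0.05) in PA-1, in TOV21G, in the mean of both lines or in the difference between the lines, where 0% of genes did. At an unadjusted p under 0.05, edgeR had 4 members higher and 0 lower in PA-1 (2.18% and 0.392% of genes), 8 higher and 1 lower in TOV21G (4.15% and 5.41% of genes), 11 higher and 1 lower in the mean (4.47% and 3.73% of genes), and 3 higher and 3 lower in the difference (1.31% and 2.5% of genes). DESeq2 called 2 members in PA-1 (0.214% of genes), 3 in TOV21G (1.28%), 5 in the mean (0.801%) and 2 in the difference (0.113%). The estimate of the spread rests on both hairpin libraries per line, with the controls taken to be equally variable. The labels do not call the libraries separate cultures. A p-value here covers only the spread between the 2 hairpin libraries of each line. That spread holds any difference between the 2 hairpins, and the rest of it may be technical. Leaving out 1 hairpin library leaves 1 in its group, so the calls of such fits are not used as results. Without the TOV21G hairpin 1 library the spread came from PA-1 alone, and edgeR called genes it had not called with all libraries.

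**Figure D3:**
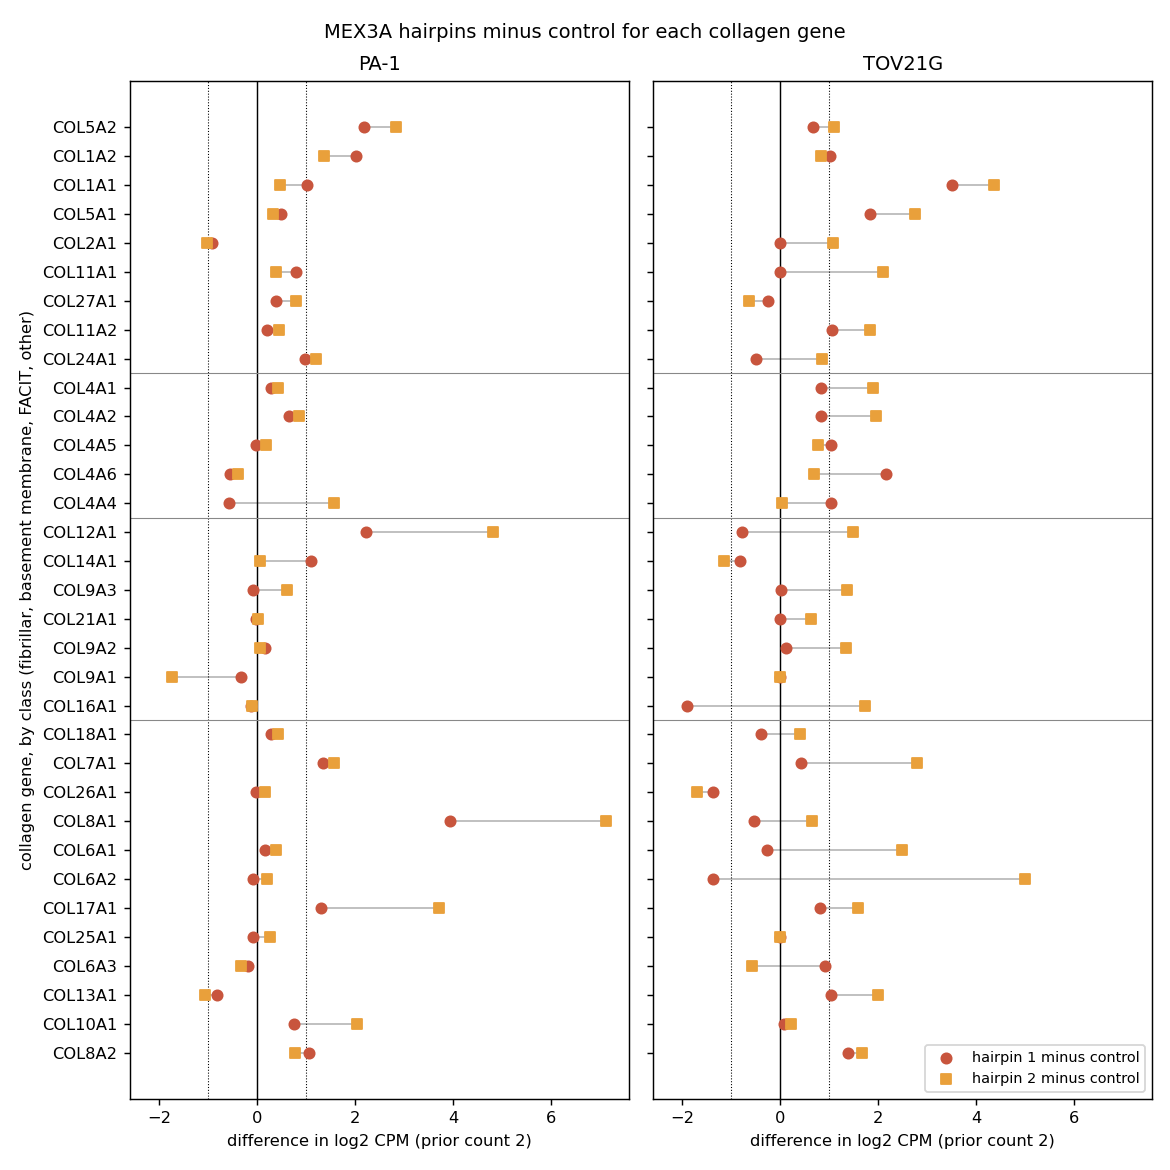
Difference in log2 CPM (prior count 2) between each hairpin and the control of its line for the 33 collagen genes, in PA-1 (left) and TOV21G (right), with circles for hairpin 1 and squares for hairpin 2. Dotted lines mark a 2-fold difference; 6 members lay beyond the upper line with both hairpins in PA-1 and 5 in TOV21G, where hairpin 2 lay apart from hairpin 1 for COL6A1, COL6A2 and COL7A1.

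Among fibrillar collagens, DESeq2 called COL5A2 in PA-1 (0.214% of genes called), and COL1A1 and COL5A1 in TOV21G (1.28% of genes). In the mean of both lines it called COL1A1, COL1A2, COL5A1 and COL5A2, all higher (0.801% of genes called in either direction). COL5A2 (chromosome 2, 189031898 to 189441111), the chain that with COL5A1 forms the type V collagen that sets fibril diameter, was at 314 and 491 CPM with hairpins 1 and 2 in PA-1, against 68.9 CPM in the control. Both hairpin libraries were far above the control, by 4.56-fold and 7.13-fold. The log2 fold change was 2.55 (SE 0.42), with an adjusted p of 1 by edgeR and 9.93e-06 by DESeq2. In TOV21G COL5A2 was a minor chain, at 4.29 and 5.84 CPM with hairpins 1 and 2 against 2.66 CPM in the control. Its log2 fold change in TOV21G less that in PA-1 was -1.622 (SE 0.565), and neither edgeR nor DESeq2 called that difference.

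COL1A1 (chromosome 17, 50184101 to 50201631), the main chain of type I collagen, was at 104 and 189 CPM with the hairpins in TOV21G, against 9.03 CPM in the control. The control stood apart from both hairpins, which were 11.6-fold and 20.9-fold higher. The log2 fold change was 4.02 (SE 0.56), with an adjusted p of 0.382 by edgeR and 2.82e-11 by DESeq2. In PA-1 COL1A1 was at 181 and 124 CPM with hairpins 1 and 2, against 88.8 CPM in the control, and the log2 fold change was 0.78 (SE 0.46, edgeR adjusted p = 1, DESeq2 adjusted p = 1). Its log2 fold change in TOV21G less that in PA-1 was 3.24 (SE 0.66), with an adjusted p of 1 by edgeR and 0.00538 by DESeq2.

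COL1A2 (chromosome 7, 94394895 to 94431227) was at 369 and 326 CPM with the hairpins in TOV21G, against 183 CPM in the control. In PA-1 it was at 3.70 and 2.29 CPM with hairpins 1 and 2, against 0.818 CPM in the control, which are 61 and 45 counts against 13. All hairpin libraries of both lines lay above their control, and the log2 fold change in the mean of both lines was 1.39 (SE 0.28), with an adjusted p of 0.547 by edgeR and 0.0118 by DESeq2. COL5A1 (chromosome 9, 134641803 to 134844843) was at 37.1 and 70.6 CPM with the hairpins in TOV21G, against 10.4 CPM in the control. Its hairpin libraries were 3.57-fold and 6.79-fold above the control, and the log2 fold change was 2.37 (SE 0.48), with an adjusted p of 0.382 by edgeR and 0.000765 by DESeq2. In PA-1 the hairpins had 148 and 132 CPM of COL5A1, against 106 CPM in the control. The log2 fold change of COL5A1 in TOV21G less that in PA-1 was 1.96 (SE 0.61, DESeq2 adjusted p = 0.558), and edgeR did not call it either.

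The cartilage collagens COL2A1 and COL11A1 were measured in PA-1 and nearly absent from the TOV21G counts. COL2A1 (chromosome 12, 47972967 to 48006212), the main collagen of cartilage, was at 61.1 and 57.1 CPM with the hairpins in PA-1, against 116 CPM in the control. It was the fibrillar member that was lower with both hairpins there, with a log2 fold change of -0.97 (SE 0.38, edgeR adjusted p = 1, DESeq2 adjusted p = 1). COL11A1, which assembles with type II collagen, was at 79.9 and 59.9 CPM with the hairpins in PA-1, against 45.9 CPM in the control. Counts of both genes in TOV21G were between 0 and 6. COL11A2, the second chain of type XI collagen, was at 3.36 and 5.84 CPM with the hairpins in TOV21G, against 1.56 CPM in the control, with a log2 fold change of 1.56 (SE 0.62) and an adjusted p of 0.529 by edgeR and 0.747 by DESeq2. COL27A1, a fibrillar collagen of developing cartilage, was at 48.6 and 64.4 CPM with the hairpins in PA-1, against 37.3 CPM in the control, and at 51.4 and 39.0 CPM in TOV21G, against 61.0 CPM. COL24A1, another fibrillar collagen, did not exceed 2.55 CPM.

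**Figure D4:**
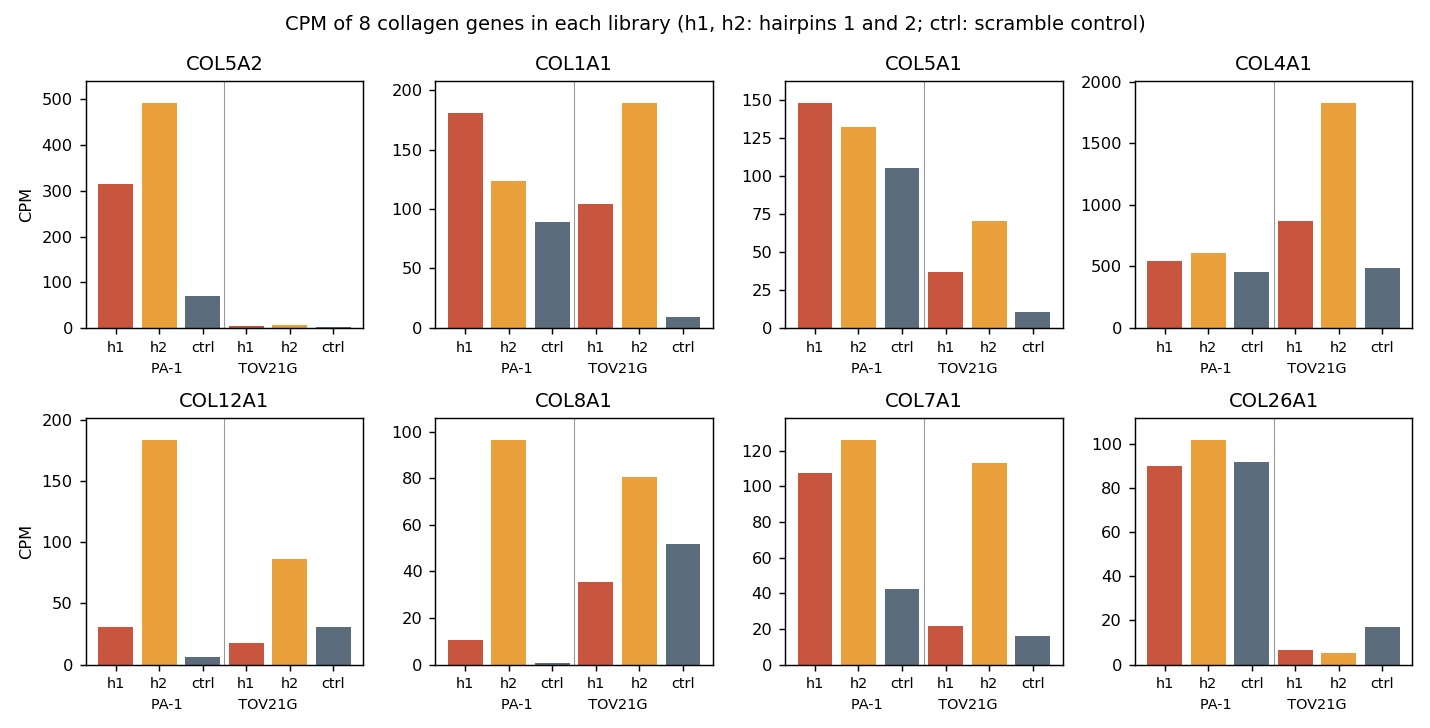
CPM of 8 collagen genes in each library (bars from 0, axes differ between genes), with hairpin 1, hairpin 2 and control from left to right in each line. COL5A2, COL12A1 and COL8A1 were far above the control with both hairpins in PA-1, COL1A1 and COL5A1 in TOV21G, and COL26A1 was lower with both hairpins in TOV21G.

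All 5 basement membrane members were higher with both hairpins in TOV21G (31.3% of all genes were), and 0 of them reached 2-fold with both (4.26% of genes). COL4A4 among them had 6 and 2 counts with the hairpins and 2 in the control, so its order with hairpin 2 rests on library scaling. COL4A1 (chromosome 13, 110148963 to 110307157) was at 870 and 1825 CPM with the hairpins in TOV21G, against 489 CPM in the control. COL4A2 (chromosome 13, 110307284 to 110513209), transcribed away from the same interval, was at 646 and 1419 CPM with hairpins 1 and 2, against 365 CPM in the control. Both genes had the same order of the 3 libraries, hairpin 2 highest and control lowest. The log2 fold changes were 1.46 (SE 0.49) for COL4A1 and 1.5 (SE 0.52) for COL4A2, with edgeR adjusted p of 0.484 and 0.486 and DESeq2 adjusted p of 0.114 and 0.121. In PA-1 COL4A1 was at 548 and 608 CPM with hairpins 1 and 2, against 451 CPM, and COL4A2 at 370 and 427 CPM, against 235 CPM. Their log2 fold changes there were 0.36 (SE 0.47) and 0.76 (SE 0.50), with edgeR and DESeq2 adjusted p of 1.

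COL4A5 (chromosome X, 108439838 to 108697545), the chain affected in X-linked Alport syndrome, was at 404 and 335 CPM with the hairpins in TOV21G, against 198 CPM in the control, with a log2 fold change of 0.90 (SE 0.27) and an adjusted p of 0.460 by edgeR and 0.195 by DESeq2. In PA-1 it was at 133 and 153 CPM with hairpins 1 and 2, against 135 CPM, and the control lay between the hairpins. COL4A6 (chromosome X, 108155614 to 108439458), its neighbour and partner chain, was at 62.1 and 70.2 CPM with the hairpins in PA-1, against 91.5 CPM in the control, and at 5.08 and 1.75 CPM in TOV21G, against 1.04 CPM. COL4A4, a chain of the kidney's basement membrane network, did not exceed 2.29 CPM in any library.

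Partner chains of one collagen type were set against each other as a ratio of their TPM. COL1A1 was 41.7-fold and 46.0-fold its partner COL1A2 with hairpins 1 and 2 in PA-1, against 92.4-fold in the control, where COL1A2 had only 13 counts and the exact 95% interval ran from 53.9 to 174. In TOV21G the ratio was 0.241 and 0.494 with the hairpins, against 0.0424 in the control (0.0355 to 0.0503). COL1A1 therefore had the higher TPM of the pair in every PA-1 library and COL1A2 in every TOV21G library. Most type I collagen is a trimer of 2 COL1A1 chains and 1 COL1A2 chain. The COL5A1 to COL5A2 ratio was 0.361 and 0.206 with the hairpins in PA-1, against 1.15 in the control (1.07 to 1.25), and 6.12 and 8.86 with the hairpins in TOV21G, against 2.74 (1.94 to 3.96). In PA-1 the hairpin ratios lay below the control, and in TOV21G above it. COL4A1 to COL4A2 stayed within 1.27 to 1.89 over all 6 libraries. The COL4A5 to COL4A6 ratio was 2.02 and 2.10 with the hairpins in PA-1, against 1.43 in the control, and 68.0 and 158 in TOV21G, against 199 (122 to 349). These intervals cover counting error only, and the ratios have no replicate test.

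**Figure D5:**
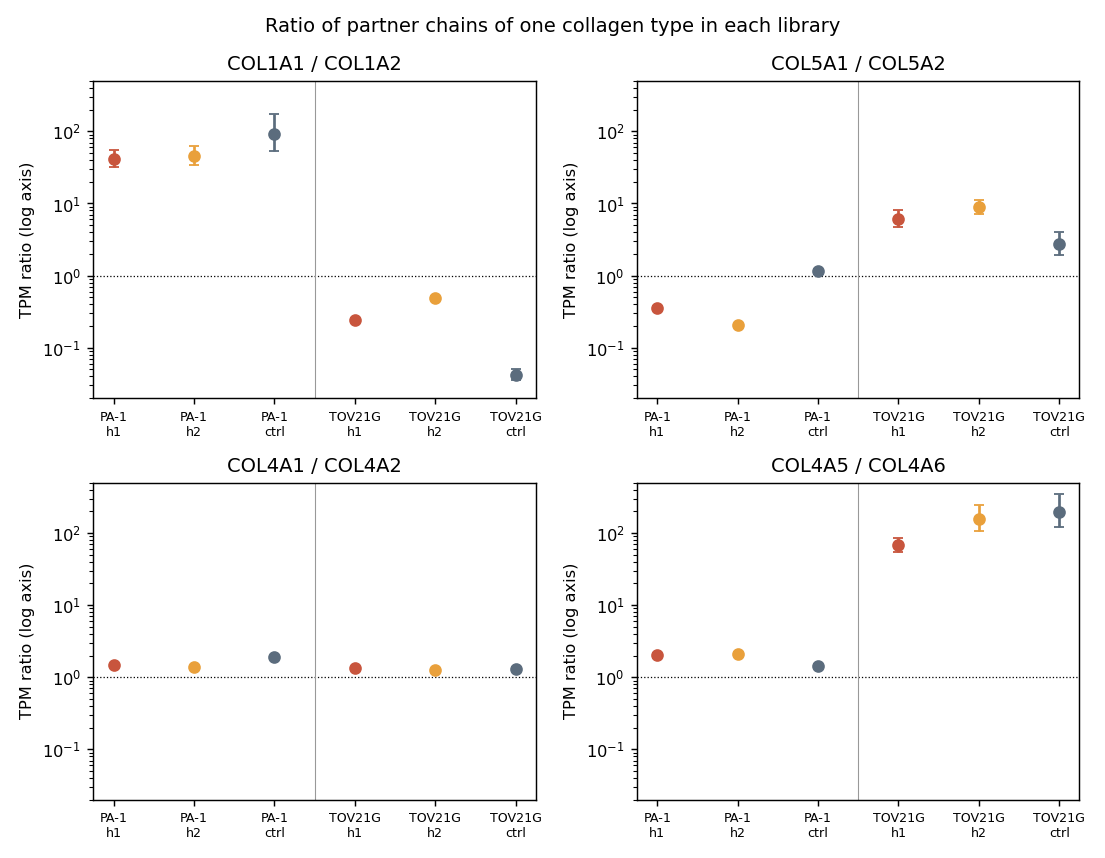
Ratio of the TPM of 2 partner chains in each library (log axis; h1 and h2 are the hairpins, ctrl the control), with exact 95% intervals for counting error; the dotted line marks equal TPM. COL1A1 to COL1A2 and COL5A1 to COL5A2 lay on opposite sides of 1 in the hairpin libraries of the 2 lines, while COL4A1 to COL4A2 stayed between 1.27 and 1.89.

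Of the FACIT members, COL12A1 (chromosome 6, 75084326 to 75206053), a fibril surface collagen of tendon and fascia, was at 30.3 and 183 CPM with hairpins 1 and 2 in PA-1, against 6.36 CPM in the control. Both hairpins were above the control, by 4.77-fold and 28.8-fold, but they differed from each other by 6.04-fold. The log2 fold change was 4.07 (SE 1.60, edgeR adjusted p = 1, DESeq2 adjusted p = 1). In TOV21G COL12A1 was at 17.8 and 86.3 CPM with the hairpins, on either side of the control at 30.7 CPM. COL14A1, another fibril surface collagen, was at 29.1 and 23.4 CPM with the hairpins in TOV21G, against 51.8 CPM in the control, and at no more than 0.546 CPM in PA-1. COL9A2 and COL9A3, chains of the type IX collagen bound to cartilage fibrils, were at 5.98 to 25.4 CPM in PA-1 and 0.974 to 5.11 CPM in TOV21G. Their partner chain COL9A1 was at 3.34 and 1.17 CPM with the hairpins in PA-1, against 4.22 CPM in the control. COL21A1 was nearly level in PA-1, at 9.10 and 9.31 CPM with the hairpins and 9.25 CPM in the control, and COL16A1 did not exceed 2.52 CPM.

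Among the other collagens, COL8A1 (chromosome 3, 99638594 to 99799217), a chain of the network-forming type VIII collagen, was at 10.5 and 96.3 CPM with the hairpins in PA-1, against 0.566 CPM, or 9 counts, in the control. The hairpins were 18.5-fold and 170-fold above the control, and hairpin 2 was 9.18-fold above hairpin 1. The log2 fold change was 6.54 (SE 1.91), with an adjusted p of 1 by edgeR and 6.23e-06 by DESeq2. In TOV21G COL8A1 was at 35.3 and 80.7 CPM with the hairpins, on either side of the control at 51.8 CPM, and its log2 fold change in TOV21G less that in PA-1 was -6.38 (SE 2.15), with an adjusted p of 1 by edgeR and 0.0163 by DESeq2.

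COL7A1 (chromosome 3, 48564073 to 48595329), the anchoring fibril collagen of skin, was at 107 and 126 CPM with the hairpins in PA-1, against 42.4 CPM in the control, and at 21.9 and 113 CPM in TOV21G, against 16.2 CPM. COL17A1 (chromosome 10, 104031286 to 104085880), the transmembrane collagen of hemidesmosomes, was at 5.04 and 27.3 CPM with the hairpins in PA-1, against 1.95 CPM in the control, and at 13.5 and 23.0 CPM in TOV21G, against 7.6 CPM. For both genes every hairpin library lay above its control. The log2 fold changes in the mean of both lines were 1.76 (SE 0.69) for COL7A1 and 2.15 (SE 0.78) for COL17A1, with edgeR adjusted p of 0.609 and 0.574 and DESeq2 adjusted p of 0.1 and 0.0866.

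COL26A1 (chromosome 7, 101362388 to 101559024), described in mouse testis and ovary, was at 6.46 and 5.17 CPM with the hairpins in TOV21G, against 17.0 CPM in the control. Both hairpin libraries were below the control, at 38.0% and 30.4% of it, and the log2 fold change was -1.55 (SE 0.27), with an adjusted p of 0.382 by edgeR and 0.0160 by DESeq2. In PA-1 it was at 90.2 and 102 CPM with hairpins 1 and 2, against 91.7 CPM in the control. COL13A1, a transmembrane collagen of the neuromuscular junction, was at 2.77 and 5.58 CPM with the hairpins in TOV21G, against 1.30 CPM in the control, with a log2 fold change of 1.68 (SE 0.65) and an adjusted p of 0.517 by edgeR and 0.623 by DESeq2. COL18A1 (chromosome 21, 45405165 to 45513720) was at 461 and 508 CPM with the hairpins in PA-1, against 376 CPM in the control, and at 618 and 1071 CPM in TOV21G, on either side of the control at 809 CPM.

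The type VI chains form beaded filaments around cells. COL6A1 was at 73.4 and 85.3 CPM with the hairpins in PA-1, against 65.7 CPM in the control, and at 11.4 and 78.1 CPM in TOV21G, against 13.8 CPM. COL6A2 was at 49.6 and 60.5 CPM with the hairpins in PA-1, against 52.8 CPM, while in TOV21G it had 0 and 149 counts with hairpins 1 and 2 and 3 counts in the control. COL6A1 and COL6A2 were high in the hairpin 2 library alone among those of TOV21G. COL6A3 was at 8.14 to 10.2 CPM in PA-1 and at most 0.593 CPM in TOV21G. COL10A1, a collagen of hypertrophic cartilage, and COL8A2, the partner of COL8A1, did not exceed 3.76 CPM, and the 2-fold count of COL8A2 in TOV21G rests on 3 and 4 counts with the hairpins against 0 in the control.

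The 2 hairpins were compared with each other over both lines in a fit with line and hairpin as terms. No member passed by edgeR (0% of genes), or by DESeq2 where it gave an adjusted p (0 members, 0.884% of genes). DESeq2 gave no adjusted p for some members, COL17A1 and COL9A3 among them. At an unadjusted p under 0.05, edgeR had 6 members higher with hairpin 2 than with hairpin 1 (6.12% of genes), namely COL12A1, COL17A1, COL4A2, COL6A1, COL7A1 and COL9A3, and 0 lower (4.21% of genes). COL12A1 and COL8A1 were at least 2-fold higher with hairpin 2 than with hairpin 1 in both lines (1.13% of genes), and 0 members were at least 2-fold lower in both (0.659%). For single hairpins, 9 members were at least 2-fold above the control with hairpin 1 in PA-1 (5.59% of genes) and 9 with hairpin 2 (6.95% of genes). In TOV21G there were 9 with hairpin 1 (8.71% of genes) and 18 with hairpin 2 (12.4% of genes), so the TOV21G hairpin 2 library held the most such members. At least 2-fold below the control were 0 and 3 members with hairpins 1 and 2 in PA-1 (2.19% and 2.48% of genes), and 3 and 2 in TOV21G (7.87% and 10.7% of genes).

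The lines themselves differed in which collagens they expressed. Over the 4 groups, 20 of 33 members (60.6%) differed between PA-1 and TOV21G by edgeR at an adjusted p of 0.05, against 40.6% of genes, with 14 higher (20.6% of genes) and 6 lower (20% of genes) in PA-1. DESeq2 called 23, which include those 20, against 40.2% of genes. The number of members that edgeR called depended on which single hairpin library was left out. All 3 PA-1 libraries lay above all 3 TOV21G libraries for 16 members (30.8% of genes) and below them for 6 members (29.4% of genes). The 6 lower in PA-1 were the fibrillar COL1A2, COL11A2 and COL24A1, the basement membrane chain COL4A5, the FACIT COL14A1 and COL18A1. COL1A2 was at 0.818 to 3.70 CPM in PA-1 and 183 to 369 CPM in TOV21G, with no overlap, and its PA-1 minus TOV21G difference on the log2 scale was -7.33 (SE 0.35, edgeR adjusted p = 0.000655). COL14A1 was at 0.189 to 0.546 CPM in PA-1 and 23.4 to 51.8 CPM in TOV21G, with a difference of -7.09 (SE 0.45, edgeR adjusted p = 0.000881).

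The 14 higher in PA-1 were COL1A1, COL2A1, COL5A1, COL5A2 and COL11A1 of the fibrillar class, COL4A6 of basement membranes, COL9A1, COL9A3 and COL21A1 of the FACIT class, and COL6A2, COL6A3, COL8A2, COL25A1 and COL26A1 of the others. COL5A2 was at 68.9 to 491 CPM in PA-1 and 2.66 to 5.84 CPM in TOV21G, and the difference on the log2 scale was 5.50 (SE 0.34, edgeR adjusted p = 0.000872). COL4A6 was at 62.1 to 91.5 CPM in PA-1 and 1.04 to 5.08 CPM in TOV21G, with a difference of 5.36 (SE 0.52, edgeR adjusted p = 0.00207). COL26A1 was at 90.2 to 102 CPM in PA-1 and 5.17 to 17.0 CPM in TOV21G, with a difference of 3.24 (SE 0.21, edgeR adjusted p = 0.000924). The libraries of the lines did not overlap for any of these 3 genes. COL25A1, a transmembrane collagen of neurons, and COL9A1 had 0 counts in all TOV21G libraries and were at least 162-fold and 42.2-fold higher in PA-1, taking 3 counts over the 3 TOV21G libraries as the floor. COL1A1 was called although the lines overlapped, with 88.8 to 181 CPM in PA-1 and 9.03 to 189 CPM in TOV21G. COL4A1, COL4A2, COL7A1, COL8A1, COL12A1, COL17A1 and COL27A1 also overlapped between the lines and did not pass edgeR.

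The machinery around the chains was counted in 6 lists. No gene of any list passed edgeR against the control in either line, where 0% of genes did. Over all genes tested, 3.36% were at least 2-fold higher with both hairpins in PA-1 and 4.26% in TOV21G. At least 2-fold lower were 0.682% in PA-1 and 3.36% in TOV21G. Of 20 genes tested for collagen folding and modification, 0 were at least 2-fold in one direction with both hairpins in either line. The prolyl hydroxylase P4HA2 was at 21.4 and 29.4 CPM with the hairpins in PA-1, against 13.7 CPM in the control. The lysyl hydroxylase PLOD2 was at 66.6 and 53.0 CPM with the hairpins in TOV21G, against 126 CPM in the control, and at 66.6 and 86.8 CPM in PA-1, against 49.6 CPM. Of 13 secretion genes tested, 1 was at least 2-fold higher with both hairpins in TOV21G. It was CREB3L1, a transcription factor that in mouse drives type I collagen in bone, at 6.20 and 20.2 CPM with hairpins 1 and 2 against 2.08 CPM in the control.

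Of 12 genes tested for propeptide processing and cross-linking, LOX and LOXL4 were at least 2-fold higher with both hairpins in PA-1. The lysyl oxidase LOX, which cross-links fibrils, was at 30.8 and 99.7 CPM with the hairpins in PA-1, against 1.76 CPM in the control, and DESeq2 called it (adjusted p = 4.15e-08, edgeR adjusted p = 1). In TOV21G PCOLCE2, an enhancer of propeptide cleavage, was at 1.65 and 1.81 CPM with hairpins 1 and 2, against 5.39 CPM in the control, and LOXL3 at 1.32 and 0.941 CPM, against 2.86 CPM. Of 13 genes tested for degradation and its inhibitors, the gelatinase MMP2 was at 2.70 and 6.11 CPM with the hairpins in TOV21G, against 0.780 CPM in the control. The protease inhibitor TIMP2 was at 173 and 109 CPM with the hairpins in TOV21G, against 356 CPM, and the membrane protease MMP16 at 15.0 and 24.0 CPM, against 49.3 CPM. DESeq2 called MMP2 (adjusted p = 0.0192) and not TIMP2 (adjusted p = 0.0698) or MMP16 (adjusted p = 0.325).

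Of 8 collagen receptor genes tested, 0 with at least 1 CPM reached 2-fold with both hairpins. ITGB1, the beta chain of the collagen-binding integrins, was at 713 and 722 CPM with the hairpins in PA-1, against 481 CPM in the control, and at 3882 and 2938 CPM in TOV21G, against 2420 CPM. Of 11 fibril-associated matrix genes tested, FN1, TNC and POSTN were at least 2-fold higher with both hairpins in PA-1 (3.36% of genes). Fibronectin (FN1) was at 591 and 493 CPM with the hairpins there, against 156 CPM in the control, and at 4.48 and 8.80 CPM in TOV21G, against 1.36 CPM. Tenascin C (TNC) was at 572 and 419 CPM with the hairpins in PA-1, against 67.4 CPM in the control. DESeq2 called FN1 in both lines (adjusted p = 0.0441 in PA-1 and 0.0104 in TOV21G) and TNC in PA-1 (adjusted p = 5.09e-11), while their edgeR adjusted p was 1 in PA-1 and 0.396 for FN1 in TOV21G.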

How the data were processed

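Poly(A)-selected RNA of 6 libraries was sequenced with a strand-specific kit, per the labels' protocols. Per the submitters' processing notes, cutadapt 1.12, STAR 2.5.3a, RSEM 1.2.31 and edgeR 3.26.8 were used with hg38; their roles and the strand setting of the counting are not given in the sources used here. The authors deposited an RSEM table per library with the expected count (estimated reads per gene, not normalized), TPM (scaled by transcript length and library total) and transcript lengths. Reads shared between similar genes or with antisense transcripts may be split between them, and deposited TPM depends on the length RSEM estimated per library.

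Before testing, expected counts from the deposited tables became integers by rounding, were scaled by TMM and tested with edgeR 4.0.16 in R 4.3.3. The quasi-likelihood F test used 1 mean for each of 4 groups (line by hairpin target), 2 residual degrees of freedom and 16855 genes kept by filterByExpr, with Benjamini-Hochberg adjustment over all of them and a threshold of 0.05. The biological coefficient of variation was 0.295. SE was approximated from each fold change and its F statistic (size over root F). Hairpin 2 was compared with hairpin 1 in a fit with line and hairpin as terms. DESeq2 1.42.0 was the other tool; an adjusted p it left out stayed out. Each hairpin was also set against its control untested, on log2 CPM values computed with a prior count of 2. Levels between genes use the deposited TPM. Wilson and exact intervals (scipy 1.17.1) and the floor of 3 counts account for counting error alone, as no molecular identifiers were used. The fits were tested on simulated data.

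The members, classes, gene lists and motifs were chosen with earlier results of these data known. Members given in full were those at least 2-fold in one direction with both hairpins at a mean of at least 1 CPM in that line, those passing a test, and the 5 with the highest mean TPM per line. Other genes named were MEX3A, markers, and up to 4 genes per list and line ranked by the lesser of the 2 hairpin differences. Gene positions and promoters came from RefSeq (GRCh38.p14).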

Additional observations from a re-analysis of the deposited data

Results flagged for a closer look

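For 4 collagen genes both hairpins lay on one side of the control in TOV21G and on the other side in PA-1. These 4 are 2 in each direction (6.06% of members each), against 7.39% of genes higher in TOV21G and lower in PA-1 and 7.29% the other way round. The difference between the effects did not pass edgeR's interaction test for any of them (adjusted p = 1 each). COL13A1 was higher with both hairpins in TOV21G and lower with both in PA-1, with 2.49 and 2.09 CPM for hairpins 1 and 2 in PA-1 and 4.47 CPM in its control, and its log2 fold change in TOV21G less that in PA-1 was 2.64 (SE 0.86). COL4A6 differed in the same direction by 2.18 (SE 0.91). COL14A1 was lower with both hairpins in TOV21G and higher with both in PA-1, a difference of -1.90 (SE 0.92), with 3 to 9 counts per library in PA-1. COL27A1 differed in that direction by -1.03 (SE 0.45). The causes were not tested.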

How the results depend on the processing

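No collagen gene passed edgeR against the control in PA-1, TOV21G or the mean, or in the difference between lines. By DESeq2 the counts were 2, 3, 5 and 2. With a replicate block on the hairpin number, edgeR called 3 members in PA-1 (COL5A2, COL8A1, COL12A1), where 13 of 16855 genes passed. It called 1 in TOV21G (COL1A1), where 36 genes passed, and 3 in the mean (COL1A1, COL5A2, COL12A1), where 22 genes passed. Between the lines it called 27 members, where 8229 genes passed. The hairpin number marks only the reagent, and deviations of same-numbered libraries correlated at r = 0.236 over 16855 genes. Leaving out 1 hairpin library at a time gave 0 to 8 calls in TOV21G, 0 to 8 in the mean and 15 to 26 between the lines; the 8 came without TOV21G hairpin 1, at a coefficient of variation of 0.163. Each such fit leaves 1 library in its group and takes the spread from the other line alone. Its calls are therefore not read as evidence for any member, and no share of all genes stands beside them. A threshold of 1.5-fold gave 10 members higher and 2 lower in PA-1, and 12 higher and 2 lower in TOV21G. In TOV21G, 2 were higher at a prior count of 5 and 2 among members with at least 100 counts. The shares of all genes at these settings are not given here, so these counts of members have no background beside them. With a single hairpin, 9 to 18 were higher and 2 to 3 lower in TOV21G, and 0 to 3 lower in PA-1. The mean FACIT sum of both hairpins in TOV21G was 1.03-fold the control by TPM and 0.967-fold by count share. By count share the fibrillar sums were 1.95-fold in PA-1 and 2.25-fold in TOV21G and the PA-1 FACIT sum 3.33-fold. COL12A1, a FACIT member, had 500 and 3603 counts with the hairpins in PA-1, against 101 in the control. Without the highest member of each library the fibrillar sums were 1.5-fold and 3.26-fold and the TOV21G sum of other collagens 1.66-fold. For the fibrillar class in PA-1 that member was COL5A2 with the hairpins and COL2A1 in the control. The 1.5-fold therefore does not compare the same genes. Leaving out 1 hairpin library gave log2 fold changes of -0.022 (without hairpin 2) to 0.152 for COL26A1 in PA-1 and of -0.392 (without hairpin 2) to 0.403 for COL18A1 in TOV21G. RLE scaling changed no call of a member. Without the low-count filter edgeR called 21 members between the lines, where 6709 of 24726 genes passed, and 0 members elsewhere. These causes were not tested beyond the settings named. Each line had 1 control library, which both of its hairpin comparisons share.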

Other observations

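The genes outside the collagen family given here were chosen after their values were seen, in a library, TOV21G hairpin 2, where 12.4% of genes were at least 2-fold above the control. FBN1, the fibrillin of microfibrils, had 50.5 and 455 CPM with hairpins 1 and 2 in TOV21G and 33.4 CPM in the control. The prolyl hydroxylase P3H2 had 201 and 864 CPM with the hairpins and 191 CPM in that control, and the collagen-binding integrin chain ITGA2 had 32.3 and 163 CPM with the hairpins and 37.3 CPM in the control. Other genes of the same lists were lower there, with 109 CPM of TIMP2 and 53.0 CPM of PLOD2 in that library and 356 and 126 CPM in the control. In PA-1 FBN1 had 104 and 110 CPM with the hairpins and 106 CPM in the control. Under the count minimum for the family, COL6A5 had 18 and 7 counts with the hairpins in TOV21G and 2 counts in the control.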
